A study of Mus musculus with 4 samples.

Results

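A set of 34 genes that act in mitosis, chosen by name from the 33696 genes listed in the deposited tables, was followed through the less common cell types of the mouse Achilles tendon. All 34 were found by symbol in every library and all 34 had unique molecular identifiers (UMIs, the counted molecules). The cell types were glia, mural cells of blood vessels, skeletal muscle cells, cartilage cells and lymphoid cells, each gated by marker genes. The rule uses gene names alone.

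The study profiled single cells from digested Achilles tendon by droplet-based RNA sequencing, at 2 ages and with or without a tendon injury. There was 1 library for each of the 4 groups. The neonate control and neonate injury libraries came from mice labelled P3 (postnatal day 3), uninjured and with tendon injury. The adult control and adult injury libraries came from mice labelled 6 to 8 weeks old, uninjured and with tendon injury. The labels name no strain, sex, transgene, pooling of animals or time after injury, and do not say whether the age is that at injury or at collection. With 1 library per group no test of age or injury was possible. Every interval here is therefore an exact 95% interval that covers counting error only and not the spread between animals. Intervals of summed UMIs and of their ratios also leave out the spread between cells.

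Cells that enter mitosis build the cyclin B and Cdk1 kinase, condense their chromosomes, attach them to a spindle through kinetochores, and then destroy cyclin B through the anaphase-promoting complex before the cell body is cut by cytokinesis. Most of the genes for these steps are transcribed in the G2 and M phases and kept off in resting cells. A short promoter element called CHR (cell cycle genes homology region), often near CCAAT boxes, is known for binding the DREAM and MuvB complexes that hold such genes off in quiescence.

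The promoters are shown because the members were measured together as 1 programme. RefSeq promoter windows of 300 bases (250 before to 50 after the gene start, build GRCm38.p6) were matched by symbol for 29 of the 34 members. Ccna2, Aurkb, Tpx2, Kif20a and Smc4 had no window in the table. Stretches of 150 bases upstream of the start are printed 5′ to 3′ for 6 members. Of these, Top2a, Mki67 and Smc2 are all chromosome proteins. Capitals mark each CHR (TTTGAA, or TTCAAA on the other strand) and each CCAAT box (CCAAT, or ATTGG on the other strand). All 6 are among the 21 matched members with both motifs, so they do not stand for the members that lack one. The build of these coordinates differs from that of the counts, which were made on GRCm39.
Cdk1 (chr10:69352939-69353088, strand minus, 176 to 27 bases before the start): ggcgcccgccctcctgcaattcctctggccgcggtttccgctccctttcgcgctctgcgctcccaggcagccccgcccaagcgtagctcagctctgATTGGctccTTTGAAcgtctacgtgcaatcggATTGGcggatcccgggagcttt
Cdc20 (chr4:118437353-118437502, strand minus, 159 to 10 bases before the start): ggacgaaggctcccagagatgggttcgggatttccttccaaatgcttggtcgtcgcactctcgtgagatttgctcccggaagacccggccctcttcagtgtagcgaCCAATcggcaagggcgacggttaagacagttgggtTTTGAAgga
Kif11 (chr19:37376232-37376381, strand plus, 150 to 1 bases before the start): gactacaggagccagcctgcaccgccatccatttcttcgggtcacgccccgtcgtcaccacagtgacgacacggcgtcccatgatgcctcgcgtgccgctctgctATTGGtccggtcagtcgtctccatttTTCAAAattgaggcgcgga
Top2a (chr11:99024190-99024339, strand minus, 150 to 1 bases before the start): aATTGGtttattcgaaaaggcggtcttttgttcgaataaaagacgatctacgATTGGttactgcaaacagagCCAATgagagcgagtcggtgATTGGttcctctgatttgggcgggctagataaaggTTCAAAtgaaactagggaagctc
Mki67 (chr7:135716380-135716529, strand minus, 150 to 1 bases before the start): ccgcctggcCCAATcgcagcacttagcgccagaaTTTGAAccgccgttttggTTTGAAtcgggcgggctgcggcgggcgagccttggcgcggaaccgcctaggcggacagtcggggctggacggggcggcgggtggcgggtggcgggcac
Smc2 (chr4:52439071-52439220, strand plus, 150 to 1 bases before the start): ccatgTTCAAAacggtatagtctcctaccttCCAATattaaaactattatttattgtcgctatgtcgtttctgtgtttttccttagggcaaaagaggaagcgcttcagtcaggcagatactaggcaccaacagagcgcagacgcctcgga

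The CHR letters were present in 24 of the 29 matched members (82.8%), against 20.2% of the windows of 27025 genes. A CCAAT box was present in 24 of the 29 (82.8%), against 41.1% of all genes, and both motifs in 21 of the 29 (72.4%), against 7.97%. Top2a, the enzyme that untangles sister DNA, carried 4 CCAAT boxes and 1 CHR in the stretch printed. Mki67, which coats mitotic chromosomes, carried 2 CHR matches and 1 CCAAT box. Members without a CHR match in the window were Birc5, Bub1, Ccnb1, Cenpe and Nusap1, and those without a CCAAT box were Anln, Birc5, Knl1, Ndc80 and Nusap1. The 2 motifs overlapped each other in 1 of 31 member windows. These matches describe letters in a window and show no binding.

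The libraries held 5003 to 16327 barcodes and 68644322 to 128626912 UMIs, and 4440 to 12941 cells were kept after filtering. The median depth of kept cells was 5541 UMIs in neonate injury and 9535.5 to 10333 in the other libraries. Cells were therefore thinned at random to 1000 UMIs, and a mitotic level is the summed UMIs of the 34 members per 1000 thinned UMIs. Values for single genes are CPM, the summed UMIs of the gene scaled by all UMIs of the class, without thinning. Both are shares of counted molecules, not corrected for gene length, so levels of different genes are not compared with each other. Any 2 libraries shared 2 to 40 kept barcodes. The libraries also differed in sex-linked RNA: 83.8% of glia had Y-linked UMIs without Xist in neonate control and 16.7% in neonate injury, while 66.6% in neonate injury and 82.6% in adult control had Xist alone. Age and sex of the animals cannot be told apart in the age comparison, and beside each neonatal injury result of glia, muscle, mural and lymphoid cells the level is given for both sets of cells.

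The gate itself uses the marker genes, so their detection is fixed by it and is given as a description. All 8 Schwann markers, all 6 pericyte markers and all 7 myogenic progenitor markers were detected in the glia, mural and muscle classes of each of the 4 libraries. In glia of the neonate control, the fibroblast markers summed to 45.8 CPM and the macrophage markers to 8.86 CPM. Glia numbered 493 and 1119 cells in the neonatal control and injury libraries and 69 and 12 in the adult ones. Mural cells numbered 634, 452, 416 and 131, muscle cells 565, 177, 67 and 11, and lymphoid cells 68, 72, 70 and 76. Cartilage cells numbered 734 and 38 in the neonatal libraries and 0 in both adult ones. Groups under 50 cells were given as values and not compared.

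In the uninjured neonate every class carried mitotic RNA, and lymphoid and muscle cells carried the most. The lymphoid level was 4.00 per 1000 UMIs (95% interval 3.54 to 4.51). Muscle followed at 2.92 (2.78 to 3.06), glia at 2.33 (2.20 to 2.47), mural cells at 1.72 (1.62 to 1.83) and cartilage at 1.37 (1.29 to 1.46). No neighbours in this order had overlapping intervals, but these take UMIs as independent and are too narrow where few cells hold most of them. Of the thinned member UMIs, 34 lymphoid cells held 94.9% of those in their class and 119 glia held 93.0%. The order of the classes was not tested. Endothelial cells of the same library, measured alike, stood at 2.13, macrophages at 1.37 and fibroblasts at 0.908. The highest level of any gated class was that of 89 erythroid cells, at 11.3, and the lowest among classes of at least 50 cells was that of 96 neutrophils, at 0.531.

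**Figure D1:**
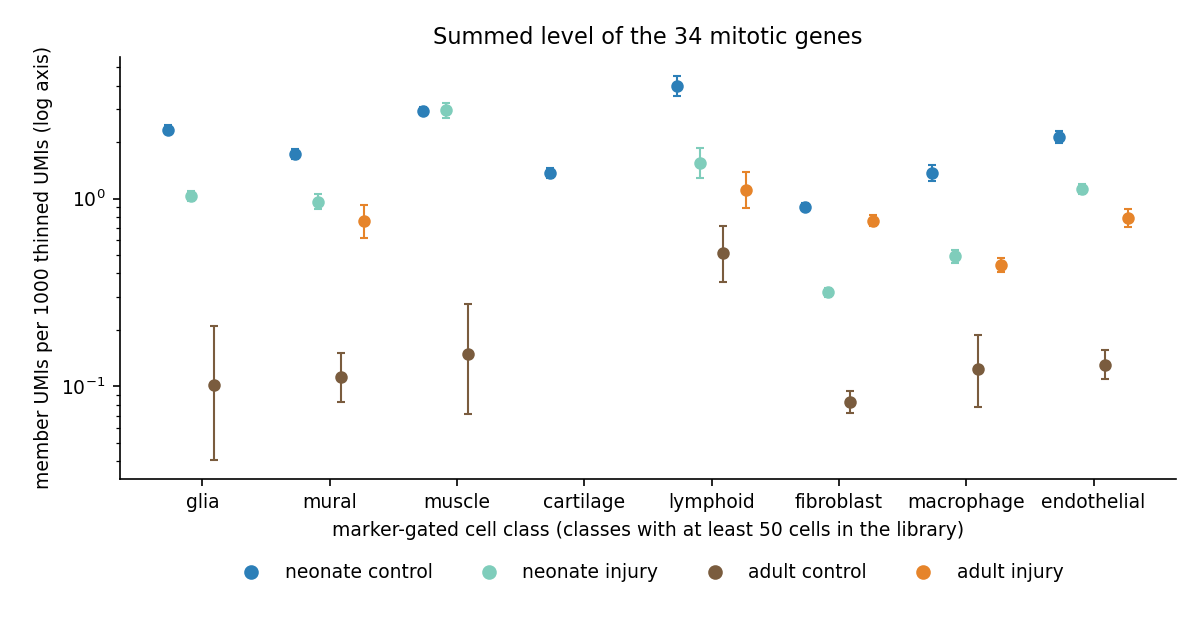
Summed UMIs of the 34 mitotic genes per 1000 thinned UMIs (log axis) in each cell class with at least 50 cells, with 1 point per library and exact 95% Poisson intervals. Adult control lies lowest in every class where it is plotted, and muscle is the class in which the 2 neonatal points coincide, at 2.92 and 2.95.

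A cell was counted as dividing when it held at least 2 member UMIs after thinning, which is a cut through a continuous count and not a cell type. In the uninjured neonate 34 of 68 lymphoid cells, 196 of 565 muscle cells (34.7%), 119 of 493 glia (24.1%), 142 of 634 mural cells (22.4%) and 102 of 734 cartilage cells (13.9%) passed. Neutrophils, taken for comparison, gave 4 of 96 cells (4.17%) in the same library at a median depth of 4534.5 UMIs. The depth was 11157 in glia, 8662.5 in mural cells, 10070 in muscle, 9897.5 in cartilage and 6952.5 in lymphoid cells. Without thinning these neutrophils held the members at 828 CPM. Whether some of them divide was not tested, so their share is not a background free of dividing cells. Of the glia, 59.4% held no member UMI after thinning, and 1 cell held 39 of its 1000.

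**Figure D2:**
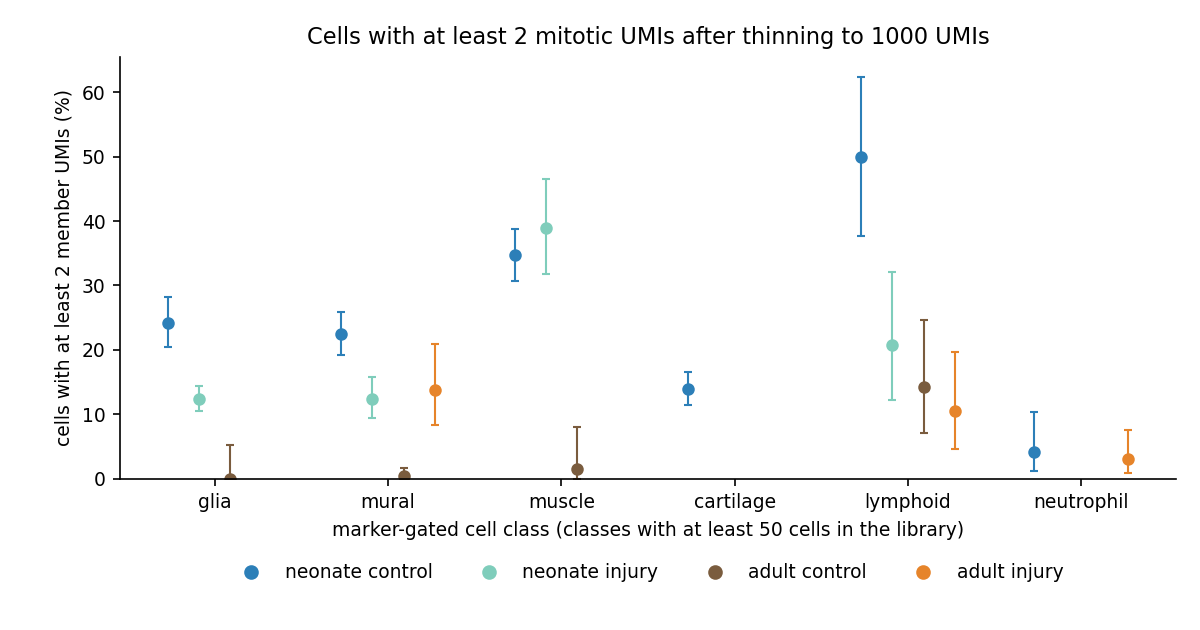
Share of cells (%) with at least 2 mitotic UMIs after thinning to 1000 UMIs, per class and library, with exact 95% binomial intervals. Neutrophils are included for comparison. Passing cells number 34 of 68 in lymphoid and 196 of 565 in muscle cells of the neonate control, against 4 of 96 of its neutrophils.

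The members stood far lower in the uninjured adult than in the uninjured neonate in glia, mural, muscle and lymphoid cells. The level was 0.101 per 1000 UMIs (0.0408 to 0.209) in adult glia, from 7 thinned UMIs, 0.113 (0.0830 to 0.150) in adult mural cells and 0.149 (0.0716 to 0.274) in adult muscle, from 10. The neonate level was 21.5 times the adult one in glia (log2 4.42, interval 3.48 to 5.84), 15.1 times in mural cells (3.92, 3.51 to 4.39) and 18.6 times in muscle (4.22, 3.41 to 5.35). In lymphoid cells it was 7.69 times (2.94, 2.45 to 3.50). These values moved with the draw and the depth of thinning. In a second random draw the log2 ratio was 3.34 in mural cells, 3.26 in muscle and 3.90 in lymphoid cells, and at 2000 UMIs it was 3.46 in glia and 3.70 in lymphoid cells. Adult lymphoid cells gave 0.514 in the random draw used and 0.352 as the expected value without a draw, and the log2 ratio was then 3.50. Dividing cells in the adult control numbered 0 of 69 glia, which allows a share of up to 4.35%, 2 of 416 mural cells (0.481%) and 1 of 67 muscle cells (1.49%). Adult lymphoid cells gave 10 of 70 (14.3%) in this draw and 4.29% in a second one.

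With a member called at 2-fold or more in CPM over at least 20 UMIs, all 34 were higher in the neonate in glia, mural and muscle cells, as were all 33 measurable members in lymphoid cells. Of all genes, 16.8% were at least 2-fold higher in neonatal glia, 16.0% in mural cells, 22.2% in muscle and 19.0% in lymphoid cells. The median log2 ratio of the members was 4.59 in glia, 5.86 in mural, 4.55 in muscle and 5.31 in lymphoid cells, against -0.10, 0.06, 0.13 and 0.00 for all genes. Members at 0 in the adult, which passed on neonatal UMIs alone, numbered 20, 12, 12 and 19. With those set to the limit of 3 counts the medians were 2.92, 4.76, 4.11 and 4.15.

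Cdk1, the kinase that drives entry into mitosis, stood at 142 CPM in neonatal and 0 in adult glia, which is at least 15.7-fold higher. In mural cells it stood at 125 and 0 CPM, at least 130-fold higher, and in muscle at 234 and 1.69 CPM, where the adult value is 1 UMI (log2 6.53, 4.63 to 12.42). In lymphoid cells Cdk1 was at 240 CPM in the neonate and 5.17 in the adult. Its partner Ccnb1 (cyclin B1) was at 49.8 against 3.00 CPM in glia, 27.2 against 0 in mural cells, 58.1 against 1.69 in muscle and 110 against 0 in lymphoid cells. Ccnb2 (cyclin B2) was still counted in adult muscle, at 16.9 CPM on 10 UMIs against 76.5 in the neonate (log2 2.11, 1.29 to 3.25). Not a single UMI of Cdk1, Ccnb1, Ccnb2 or Ccna2 was counted among the 3132222 UMIs of adult mural cells.

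Genes that act at the exit from mitosis had a like contrast. Cdc20, the activator of the anaphase-promoting complex, was at 91.4 CPM in neonatal glia and at 0 in adult glia, at least 10.2-fold higher in the neonate. It was at 57.0 against 6.07 CPM in mural cells, 80.2 against 0 in muscle and 171 against 0 in lymphoid cells. Ube2c, the ubiquitin-conjugating enzyme of that complex, was at 439 CPM in neonatal lymphoid cells and 0 in adult ones, at least 56.7-fold higher. Birc5 (survivin), of the chromosomal passenger complex that corrects attachments, was at 0 in adult cells of all 4 classes and at 149, 101, 212 and 365 CPM in neonatal glia, mural, muscle and lymphoid cells. The neonate was thus at least 16.5, 105, 41.9 and 47.1-fold higher.

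Chromosome proteins included genes nearly absent in the adult and genes still present there. Top2a was at 226 CPM against 0 in glia, 131 against 1.92 in mural cells, 391 against 1.69 in muscle and 562 against 12.9 in lymphoid cells. Mki67, the gene of the Ki-67 antigen, was at 162 against 6.00 CPM, 107 against 1.28, 270 against 8.44 and 237 against 0 in the same order. Smc4, a core subunit of condensin, was still present in every adult class, at 51.0 CPM in glia, 67.7 in mural, 60.8 in muscle and 158 in lymphoid cells, against 144, 152, 234 and 453 in the neonate. Its log2 ratio of 1.46 in glia, 1.16 in mural, 1.93 in muscle and 1.51 in lymphoid cells was the lowest or next to lowest of the members in each class. The other low values in glia were Ncapd2, a condensin regulatory subunit, at 1.44, Anln, the actin-binding anillin of the cleavage furrow, at 1.50, and the centrosomal kinases Aurka and Plk1 at 1.87 and 1.89, the last pair on 1 adult UMI each with intervals from -0.06 to 7.77 and -0.05 to 7.78.

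The make-up of the remaining adult signal was accordingly different. The condensin genes Smc2, Smc4 and Ncapd2 gave 65.0% of the 417 member UMIs in adult control mural cells, 52.1% of 48 in glia, 44.2% of 104 in muscle and 51.7% of 143 in lymphoid cells. In the other libraries of these 5 classes with at least 50 cells they gave between 11.4% and 19.7%. The adult control fibroblasts, at 56.7%, and endothelial cells, at 62.7%, had the same excess, so it was not particular to the classes described here. Without the 3 condensin genes the age ratio was log2 5.32 in mural cells, 6.11 in muscle and 3.78 in lymphoid cells.

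**Figure D3:**
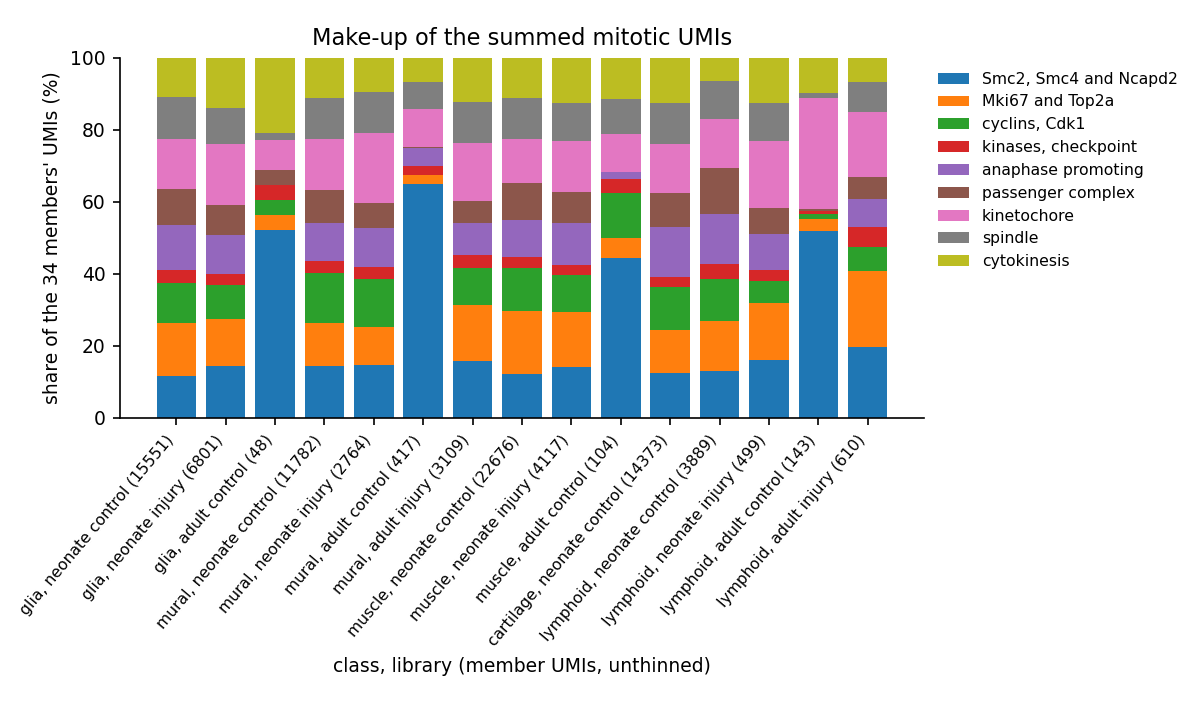
Share (%) of the 34 members' unthinned UMIs taken by each role group, per class and library, with the number of member UMIs in brackets on the axis. The chromosome structure group takes 56.2% to 67.4% of the bar in adult control glia and mural cells, against 24.3% to 31.9% in the neonatal libraries.

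After injury in the neonate, the members were lower in glia, mural and lymphoid cells and at the control level in muscle. The glial level was 1.03 per 1000 UMIs (0.973 to 1.09) against 2.33 in the control, a log2 ratio of -1.18 (-1.30 to -1.06). Mural cells stood at 0.965 against 1.72 (-0.84, -1.001 to -0.68) and lymphoid cells at 1.56 against 4.00 (-1.36, -1.69 to -1.04). Muscle cells stood at 2.95 (2.70 to 3.21) against 2.92, a log2 ratio of 0.02 (-0.13 to 0.16). That interval did not overlap those of the other 3 classes, but all of them leave out the spread between cells. Without thinning the muscle ratio was -0.16 (-0.21 to -0.12), still apart from glia at -1.04 and mural cells at -0.74. Fibroblasts, macrophages and endothelial cells of the same libraries gave -1.52, -1.47 and -0.92. A difference between classes was not tested, since there was 1 library per group.

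Dividing cells numbered 138 of 1119 glia (12.3%) after injury against 24.1% in control, and 56 of 452 mural cells (12.4%) against 22.4%. In muscle, 69 of 177 cells (39.0%, interval 31.8% to 46.6%) passed after injury, against 34.7% (30.8% to 38.8%) in control. Median depths in the injured neonate were lower, at 4113 UMIs in glia, 4598.5 in mural cells and 5977 in muscle. The injured glia with Y-linked UMIs and no Xist, 187 cells, had a level of 0.813, and the 745 cells with Xist alone had 1.18; both were below the control. In muscle the same sets gave 2.82 and 3.07, in mural cells 0.865 and 0.994, and in lymphoid cells, from 12 and 46 cells, 1.25 and 1.54.

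Of the 34 members, 19 were at least 2-fold lower in injured neonatal glia, 11 in mural cells, 1 in muscle and 22 in lymphoid cells, and none was 2-fold higher in any of these classes. Over all genes the lower share was 8.45% in glia, 6.10% in mural cells, 7.73% in muscle and 22.9% in lymphoid cells. The median log2 ratio of the members was -1.13, -0.86, -0.16 and -1.23, and that of all genes 0.07, 0.12, 0.05 and -0.11. All the age and neonatal injury values share the neonate control library.

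In glia Cdc20 and Cdk1 had the lowest ratios. Cdc20 was at 20.1 CPM after injury against 91.4 (log2 -2.18, -2.50 to -1.89), and Cdk1 at 35.5 against 142 (-1.99, -2.23 to -1.77). Next came Hmmr, a spindle-pole receptor, at -1.83, Kif20a, a kinesin of the midzone, at -1.77, and Bub1b, the BubR1 checkpoint kinase, at -1.72. Mki67 was at 59.0 against 162 CPM, Top2a at 108 against 226 and Ccnb1 at 22.9 against 49.8. At the other end Anln stood at 46.5 against 46.6 CPM (-0.00, -0.26 to 0.25), followed by Ncapd2 at -0.35, Cenpa, the histone that marks centromeres, at -0.42, Ccnb2 at -0.63 and Ccna2, the S and G2 cyclin, at -0.64. The ratios were therefore uneven among members of 1 programme.

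In mural cells Cdk1 again had the lowest ratio, at 47.2 against 125 CPM (-1.40, -1.70 to -1.11). Cdca8 (borealin, a passenger subunit) followed at -1.33, the checkpoint kinase Bub1 at -1.31, Hmmr at -1.25 and Nusap1, a microtubule-bundling protein, at -1.20. Ccnb1 did not follow its kinase and stood at 27.5 against 27.2 CPM (0.02, -0.43 to 0.44). Plk1 at 0.17, Tpx2, the spindle assembly factor, at 0.03, Cenpf, a kinetochore protein, at -0.05 and Cenpa at -0.12 were also near 0. Mki67 was at 59.3 against 107 CPM, Top2a at 64.0 against 131 and Cdc20 at 24.9 against 57.0.

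Injured muscle held the same summed level with other proportions of its members. Cdc20, at 39.1 against 80.2 CPM, was the single member past 2-fold (-1.02, -1.50 to -0.61), with Kif23, the centralspindlin kinesin, at -0.98, Cdk1 at -0.97 (119 against 234 CPM), Nusap1 at -0.86 and Hmmr at -0.76. On the high side were Ncapd2 at 0.66 (0.32 to 0.98), Ccna2 at 0.60 (0.32 to 0.87), Ect2, the activator of RhoA at the furrow, at 0.56 (0.30 to 0.80), Anln at 0.38 and Plk1 at 0.27. Mki67 was at 182 against 270 CPM, Top2a at 331 against 391 and Ccnb1 at 44.0 against 58.1. Cdc20 and Cdk1 were among the 5 lowest members in both glia and muscle.

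**Figure D4:**
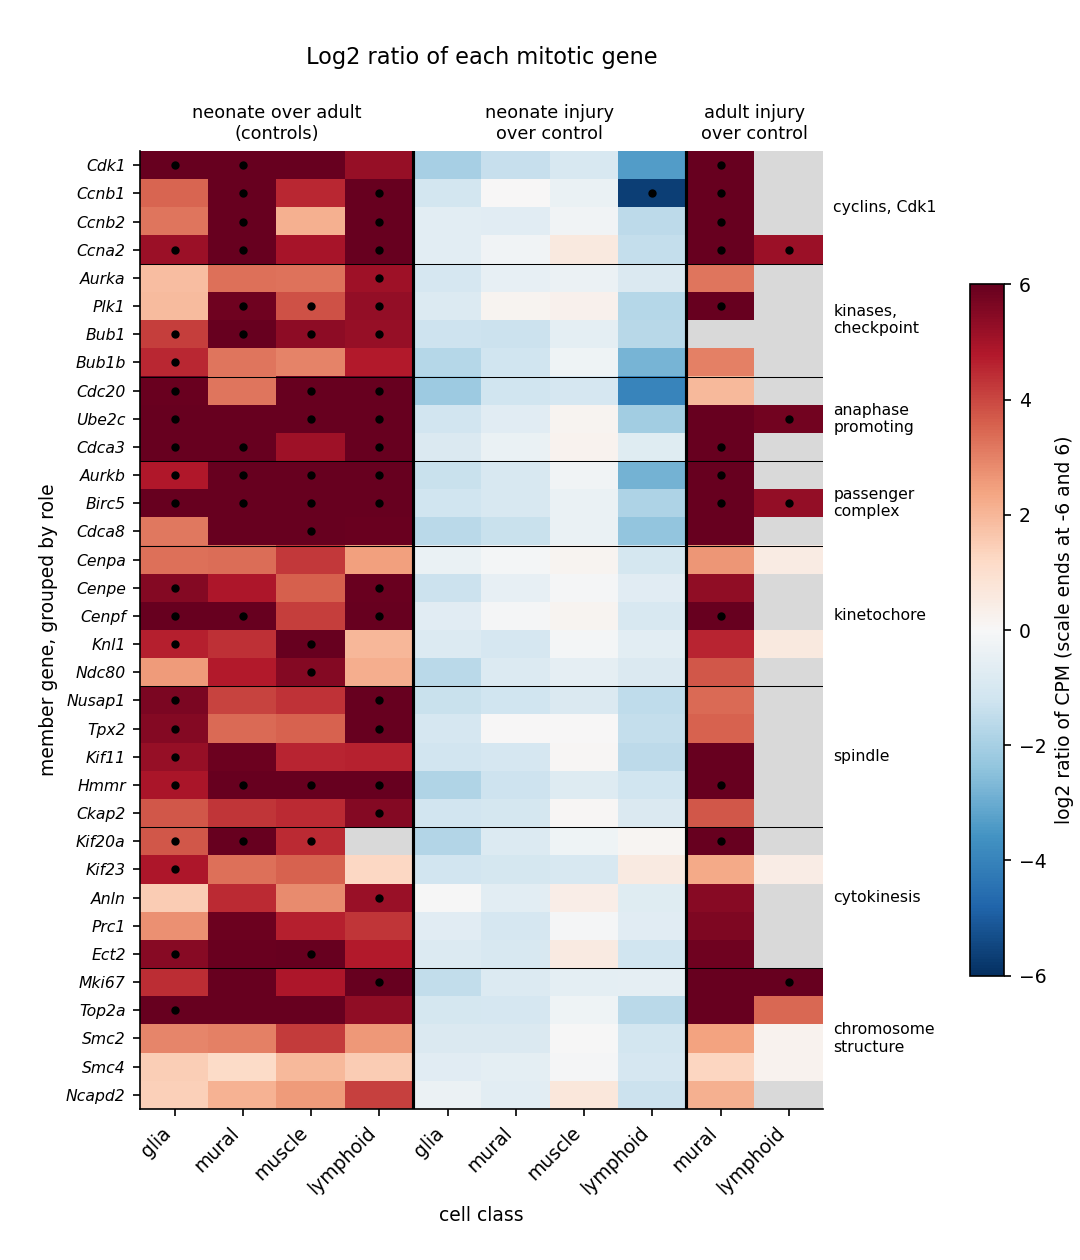
Log2 ratio of CPM for each of the 34 members, grouped by role, in each class and comparison; the colour scale ends at -6 and 6, black dots mark ratios in which 1 library has 0 UMIs, and grey cells had under 20 UMIs. Age columns are uniformly high, the glial injury column is low with Cdc20 at -2.18, and the muscle injury column is close to 0.

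Lymphoid cells gave the lowest summed ratio after neonatal injury of the 4 classes, in libraries that held different lymphoid cells. In the neonate control 62 of the 68 lymphoid cells were gated as B lineage, and 31 of them held Rag1, the recombinase of developing lymphocytes, while 27 held Igll1, a surrogate light chain of precursor B cells. In the injured neonate 52 of 72 were T or NK cells, and its 20 B-lineage cells held no Rag1 UMI. The mitotic level was 4.10 in neonate control B-lineage cells and 1.40 in neonate injury, and it was 0.429 and 1.86 in the adult control and injury libraries. T and NK cells gave 3.00 in 6 cells of the neonate control, 1.62 in 52 of neonate injury, 0.643 in 28 of adult control and 0.815 in 54 of adult injury. How much of the lymphoid ratios came from this make-up was not tested. Ccnb1 was at 110 CPM in the neonate control and 0 in neonate injury, at least 8.43-fold lower, Cdc20 at 171 and 8.69 CPM (-3.98, -7.36 to -2.41, on 2 UMIs) and Cdk1 at 240 and 21.7 CPM (-3.34, -5.11 to -2.22). Aurkb, the passenger complex kinase, followed at -2.83 and Bub1b at -2.78. The 5 highest were Kif23 at 0.53, Kif20a at 0.12, Mki67 at -0.55 (161 against 237 CPM), Knl1, the kinetochore scaffold, at -0.65 and Prc1, the midzone cross-linker, at -0.66. Top2a was at 182 against 562 CPM.

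After injury in the adult, mural cells stood far above their control. Their level was 0.763 per 1000 UMIs (0.621 to 0.928) against 0.113, a ratio of 6.72 (log2 2.75, 2.24 to 3.29), and 18 of 131 cells (13.7%, 8.35% to 20.8%) passed as dividing, against 2 of 416. Neutrophils of the adult injury library gave 4 of 133 (3.01%) at a median depth of 2345 UMIs, against 9565 in mural cells. The log2 ratio was 2.18 in a second draw, 3.93 without the condensin genes and 3.65 over all UMIs, where cells count by their depth: dividing mural cells had a median of 23157.5 UMIs and the others 8706. Among pericytes 18 of 113 (15.9%) passed as dividing. Of the smooth muscle cells 0 of 18 passed, which allows a share of up to 16.7%, so a lower share than that of the pericytes was not detectable. Their thinned level after injury was 0.167 (0.0344 to 0.487, on 3 UMIs), an interval that includes the control level of 0.117. Without thinning their summed members stood at 383 CPM against 122 in the control. The mural class held 113 pericytes and 18 smooth muscle cells after injury and 160 and 256 in the control, and in the control both had similar levels, at 0.106 and 0.117. The pericyte level after injury was 0.858. Fibroblasts, macrophages and endothelial cells gave log2 ratios of 3.21, 1.81 and 2.59 in the same pair of libraries.

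All 33 measurable members were at least 2-fold higher in injured adult mural cells, against 18.2% of all genes, with a median log2 ratio of 5.85 (4.73 with 11 members at 0 in the control set to 3 counts) against 0.17 for all genes. Cdk1 was at 46.2 CPM against 0, at least 48.2-fold higher, and Ccnb1 at 37.0 against 0, at least 38.7-fold higher. These unthinned values rest on few cells. Of the 131 injured cells, 22 held Cdk1 and 10 held Ccnb1, and thinning left 2 and 0 UMIs of them. Mki67 was at 126 against 1.28 CPM and Top2a at 136 against 1.92. Of the members at 0 in the control, Cenpf, at 88.0 CPM, was at least 91.9-fold higher and Birc5 at least 59.4-fold, with Ccna2 and Ccnb2 at least 45.9 and 44.3-fold higher. Ube2c was at 91.2 against 0.319 CPM, where the control value is 1 UMI (log2 7.58, 5.66 to 13.47). The smallest were Smc4, at 165 against 67.7 CPM (1.29, 1.03 to 1.55), Cdc20, at 23.6 against 6.07 (1.94), Ncapd2 at 2.11, Kif23 at 2.28 and Smc2 at 2.41. The age and adult injury ratios share the adult control library, which was low for both.

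In unthinned CPM, the injured adult mural cells did not hold the same proportions of members as the neonatal ones. The injured adult values come from few cells: Ccnb1 from 10, Birc5 from 18, Anln from 20 and Cdk1 from 22. After thinning, 3 injured adult cells held 5 or more member UMIs. The part of these few cells in the proportions was not tested. Set side by side in injured adult and control neonate, Anln was at 63.9 and 32.1 CPM, Cenpe, the kinetochore motor, at 70.8 and 50.3, Mki67 at 126 and 107 and Ccnb1 at 37.0 and 27.2. Cdk1 went the other way, at 46.2 and 125 CPM, as did Cdc20, at 23.6 and 57.0, and Birc5, at 56.9 and 101. These libraries differ in both age and injury, which cannot be told apart here. Endothelial markers summed to 646 CPM in injured adult mural cells and 121 CPM in the control; none of the 8 was at 0 in either, and their part in the result was not tested. Among the mural cells after injury they stood at 751 CPM in dividing and 607 CPM in other cells.

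In adult lymphoid cells the level was 1.12 per 1000 UMIs after injury against 0.514 (log2 1.11, 0.54 to 1.73), or 1.62 from the expected values without a draw. The dividing share went the other way, at 8 of 76 (10.5%) against 10 of 70, so no order was read from it. The 22 B-lineage cells of adult injury gave 41 of the 85 thinned member UMIs. Of them 3 held Igll1 and 2 held Rag1, while 0 of the 42 in adult control held either. The part of these cells in the ratio was not tested. Only 10 members had 20 UMIs over the 2 libraries, and 5 of them were at least 2-fold higher, against 15.4% of all genes. Of the 10, 4 were at 0 in the control and passed on UMIs of the injured library alone. These were Mki67, from 11 cells, and Ube2c, Birc5 and Ccna2, from 6 cells each, so the count of 5 was not read as a result. Mki67 was at 115 against 0 CPM, at least 14.8-fold higher, Ube2c, Birc5 and Ccna2 were at least 9.18, 6.21 and 5.67-fold higher, and Top2a stood at 153 against 12.9 CPM (3.44, 2.28 to 5.23). Smc2 and Smc4, both at 0.22, Kif23 at 0.46, Cenpa at 0.50 and Knl1 at 0.58 were under 2-fold, with intervals that include 0. Cdk1 stood at 10.5 and 5.17 CPM, Ccnb1 at 12.6 and 0, and Cdc20 at 8.37 and 0, all under 20 UMIs. The 12 glia and 11 muscle cells of the adult injury library had levels of 0.750 and 0.273 from 9 and 3 UMIs, and 2 of the glia passed as dividing.

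Cartilage cells could be described in the neonate control only, where Smc4 stood at 134 CPM, Top2a at 129, Cdk1 at 113, Mki67 at 87.5, Cdc20 at 60.7 and Ccnb1 at 29.2. In the 38 cartilage cells of the injured neonate the level was 0.947 (0.664 to 1.31), and 4 of them passed as dividing. The cartilage level of the control, 1.37, was close to that of its macrophages.

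Dividing glia held a lower sum of the 8 Schwann markers than other glia. The sum was 4095 CPM in dividing and 31809 CPM in other glia of the neonate control, and 4336 and 29180 CPM in the injured neonate. The markers differed unevenly: Sox10, Erbb3 and Cdh19 stood close to or above the level of other glia. Gpr37l1, a glial receptor, was lower in dividing glia, at a log2 ratio of -2.63 (-3.61 to -1.87) in the neonate control and -2.36 (-3.20 to -1.71) in the injured neonate. Sox10, the transcription factor of the glial lineage, was at 103 and 98.2 CPM in the control (0.07, -0.20 to 0.32) and 229 and 246 in the injured library (-0.10, -0.33 to 0.12). Erbb3, the neuregulin receptor, was at 0.28 and 0.30, and Cdh19, an early glial cadherin, at 0.59 and 0.20. Fibroblast markers summed to 54.3 CPM in dividing and 42.5 CPM in other glia of the control, and macrophage markers to 12.1 and 7.63. Dividing cells were deeper, with medians of 12904 and 10608 UMIs in the control, and these genes are among the markers of the gate; the part of either in these differences was not tested.

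Dividing muscle cells held far less RNA of the genes of terminal differentiation and fusion. Myog, the regulator of terminal differentiation, was at 110 CPM in dividing and 1236 in other muscle cells of the neonate control (-3.49, -3.68 to -3.32), and at 315 and 2162 after injury (-2.78, -3.01 to -2.55). The fusion genes Mymk and Mymx were at -4.09 and -4.39 in the control and at -2.42 and -3.37 after injury. Pax7, of satellite cells, was at 113 CPM on both sides in the control (0.00, -0.22 to 0.23) and at 0.26 (-0.17 to 0.69) after injury. Counted by gate, 177 of 440 myogenic progenitors (40.2%) and 19 of 125 myocytes (15.2%) passed as dividing in the control, and 61 of 125 (48.8%) and 8 of 52 (15.4%) after injury. All 67 muscle cells of the adult control were gated as progenitors, with 1 dividing and a level of 0.149, against 3.44 in neonatal progenitors. The age ratio therefore did not rest on the myocytes.

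Contractile genes differed unevenly between dividing and other mural cells. All 18 dividing cells of adult injury were pericytes, while the other 113 include the 18 smooth muscle cells, so the part of the mural subtypes in these values was not tested. Myh11, the smooth muscle myosin, was at 186 CPM in the 18 dividing cells of adult injury and 890 CPM in the other 113 (-2.25, -2.57 to -1.95), with Lmod1 and Synpo2, further contractile genes, at -1.89 and -1.63. In the neonate control Myh11 was at -0.65, while the intervals of Synpo2 (-0.05, -0.25 to 0.15) and Mrvi1 (-0.09, -0.49 to 0.28) include 0. Rgs5, a pericyte marker, was at 4674 and 6544 CPM in adult injury (-0.49) and at 3325 and 3376 CPM in the neonate control (-0.02, -0.07 to 0.02).

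**Figure D5:**
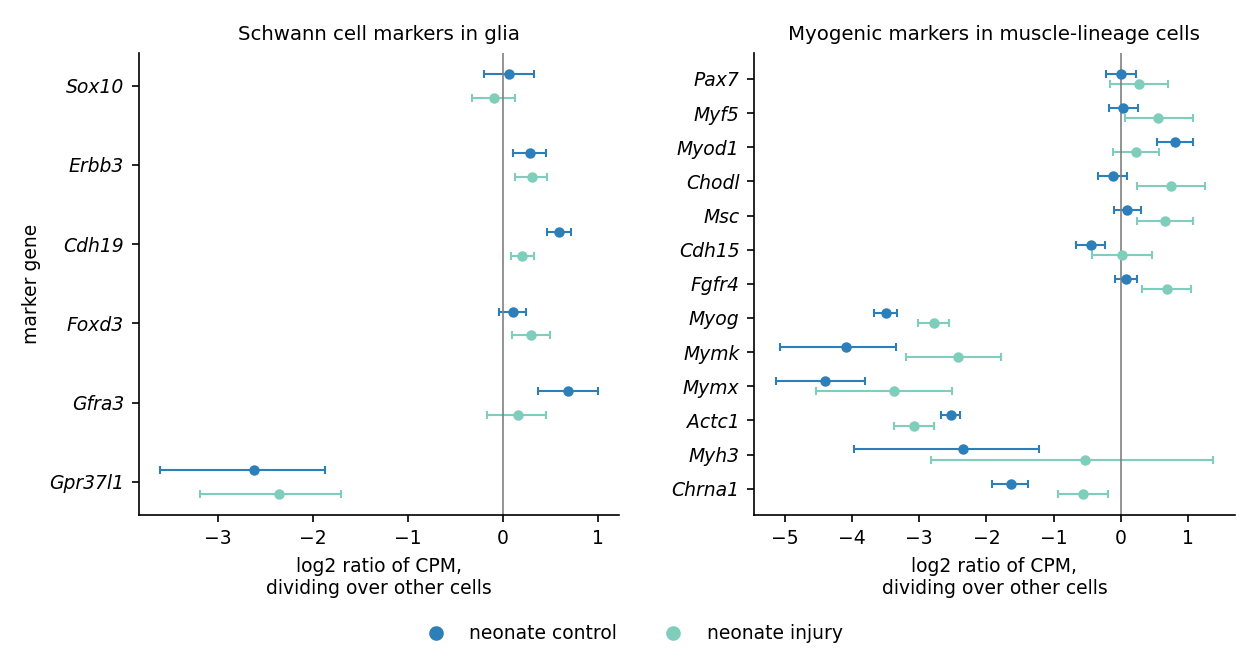
Log2 ratio of CPM between dividing and other cells for lineage and maturity markers of glia and muscle in the 2 neonatal libraries, with exact 95% intervals. Gpr37l1 at -2.63 and -2.36 and Myog at -3.49 and -2.78 lie far left of 0, while the intervals of Sox10 and Pax7 include 0.

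Other genes of the pathway, from lists chosen by function, were counted in the same way. Of 42 further mitotic genes, 40 were at least 2-fold higher with young age in glia, 41 in mural cells and 40 in muscle. In lymphoid cells 32 of 33 measurable ones were. The shares of all genes in the same order were 16.8%, 16.0%, 22.2% and 19.0%. The exception in each class included Pttg1 (securin, which holds separase inactive until anaphase). Pttg1 was higher in the adult, at 66.0 against 36.4 CPM in glia (log2 -0.89, -1.49 to -0.15), 93.5 against 50.3 in mural cells (-0.90, -1.13 to -0.66) and 40.5 against 18.4 in muscle (-1.16, -1.79 to -0.44). In injured adult mural cells 34 of the 35 measurable genes of this list were at least 2-fold higher, against 18.2% of all genes. Pttg1 was lower there, at 26.3 against 93.5 CPM (-1.82, -2.30 to -1.39). After neonatal injury 13, 10 and 0 of the 42 were at least 2-fold lower in glia, mural cells and muscle, and 24 of 35 in lymphoid cells, against 8.45%, 6.10%, 7.73% and 22.9% of all genes. In muscle Ttk, a checkpoint kinase, at 1.20, Cdc25b, a Cdk1-activating phosphatase, at 1.15 and Kif2c, a microtubule-depolymerising kinesin, at 1.03 were at least 2-fold higher. So were 8.29% of all genes there, and these genes of the list were not read as standing out.

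Of 30 DNA replication genes, 21 were at least 2-fold higher in neonatal glia, 28 in mural cells, 30 in muscle and 28 in lymphoid cells, and 18 of 25 were higher in injured adult mural cells. Of all genes the shares were 16.8%, 16.0%, 22.2% and 19.0% by age and 18.2% by adult injury. Uhrf1, which guides copying of DNA methylation, was the largest in mural cells for both, at 33.9 against 0.319 CPM by age and 39.7 against 0.319 by injury, on 1 UMI in the control. After neonatal injury 13 of the 30 were at least 2-fold lower in glia, 5 in mural cells, 3 in muscle and 30 in lymphoid cells, against 8.45%, 6.10%, 7.73% and 22.9% of all genes. The lowest in muscle were Cdc6, a loader of the replicative helicase, at -1.37, and the helicase subunits Mcm3 and Mcm4, both at -1.22, while Rrm2, of ribonucleotide reductase, stood at 0.99.

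Of 8 genes of G1 entry, 7 were at least 2-fold higher in neonatal glia, 3 of 7 in mural cells, 5 of 8 in muscle and 4 of 7 in lymphoid cells, against 16.8%, 16.0%, 22.2% and 19.0% of all genes. Ccnd1 (cyclin D1) was at 593 against 78.0 CPM in glia (2.90) and 146 against 17.2 in mural cells (3.07). In injured adult mural cells Ccnd1 stood at 178 CPM (3.36, 2.95 to 3.81), the highest of 3 genes past 2-fold, where 18.2% of all genes were at least 2-fold higher. After neonatal injury glial Ccnd2 was at -1.59 and Ccnd1 at -1.12, while muscle Ccnd1 was at 256 against 129 CPM (0.99). Ccnd3 was higher in the adult in muscle, at 476 against 204 CPM (-1.22), and in lymphoid cells, at 932 against 205 (-2.18).

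Cell cycle inhibitors were higher in some comparisons and lower in others. Of 8, 3 were at least 2-fold higher and 3 at least 2-fold lower in neonatal glia, against 16.8% and 19.6% of all genes. Cdkn1a (p21) was at 263 CPM in neonatal and 1010 in adult glia (-1.94, -2.11 to -1.77), but at 381 and 81.0 CPM in muscle (2.22). Cdkn1c (p57) was higher in the neonate, at 583 against 33.0 CPM in glia (4.08), 185 against 46.6 in mural cells (1.98), 5034 against 40.5 in muscle (6.93, 6.38 to 7.60) and 147 against 7.75 in lymphoid cells (4.03, 2.66 to 6.55, on 3 adult UMIs). After neonatal injury Cdkn1c was lower, at 125 CPM in glia (-2.22), 63.5 in mural cells (-1.54) and 2687 in muscle (-0.91). In injured adult mural cells 0 of 7 inhibitors were 2-fold higher and 2 were lower, Cdkn2d at -1.79 and Cdkn1a at -1.08 (170 against 361 CPM). Of all genes there 18.2% were at least 2-fold higher and 12% at least 2-fold lower. The counts of inhibitors were therefore not read as standing out.

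Across 32 points of class and library with at least 50 cells, the genes outside these lists whose CPM followed the summed members most closely were ranked by Spearman's rho among 11787 genes. They were Brca1 at 0.959, Stil at 0.948, H2ax and Esco2 at 0.942, Shcbp1 at 0.936, Ube2t at 0.928, Pclaf and Ska1 at 0.925, and Fbxo5 and H3c3 at 0.919. The points share libraries and depth, so the values describe likeness only. Of the members set against the other 33, Ccna2 and Kif11, the spindle motor Eg5, were highest at 0.970, and Smc4 at 0.818, Anln at 0.823 and Ccnb1 at 0.833 were lowest.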

How the data were processed

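The deposited matrices hold a count of UMIs per gene and barcode, made by the authors. Per the file headers the tool was Cell Ranger 8.0.1, and the submitters' processing notes name the build GRCm39. The extraction protocol in the labels describes digestion with collagenase and DNase. Barcodes were kept with a minimum of 500 genes and 1000 UMIs, and no more than 15% of UMIs from mitochondrial genes. Likely doublets were removed by Scrublet score (scanpy 1.11.5) at 0.8% per 1000 barcodes. Of 26 symbols listed more than once, the earliest entry was used.

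A cell was gated to a class when at least 3 of its markers were detected and the share detected led every class of another lineage by 0.2. Within a lineage the largest share decided, without a margin. This holds for pericytes and smooth muscle cells, for progenitors and myocytes, and for T or NK and B-lineage cells. Naming 52 Leiden clusters (resolution 2) by their gated cells was an alternative. Of 129 markers in 20 classes, 128 were found. These thresholds were set after seeing the data. Cells gated numbered 60.3%, 68.3%, 79.3% and 72.3% in the neonatal control and injury libraries and the adult control and injury libraries.

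Ratios carry exact binomial and sums exact Poisson 95% intervals (scipy 1.17.1). A fitted log2 ratio of a gene uses a prior of 0.5 counts. A fold against 0 UMIs uses a limit of 3 counts per library. All members were described by role, with the 5 highest and 5 lowest ratios per comparison and Mki67, Top2a, Cdk1, Ccnb1 and Cdc20 in each class. Members, lists and rules were chosen with earlier results of these data known. The steps were tested on simulated data.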

Additional observations from a re-analysis of the deposited data

Results flagged for a closer look

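In mural and lymphoid cells the injured library stood below its control in the neonate and above it in the adult, as it did in fibroblasts, macrophages and endothelial cells, where the differences between the ages were -4.73, -3.28 and -3.51. In mural cells the log2 ratio of the mitotic level was -0.84 in the neonate and 2.75 in the adult, a difference of -3.58 between the ages, or -4.38 over all UMIs. In lymphoid cells it was -1.36 and 1.11, a difference of -2.47, or -3.20 over all UMIs. The differences between the ages were not tested, since each ratio comes from 1 library per group. The 4 libraries enter each difference once, and the neonate and adult controls stood at 1.72 and 0.113 per 1000 UMIs in mural cells and at 4.00 and 0.514 in lymphoid cells.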

How the results depend on the processing

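Every summed ratio kept its sign except the neonatal injury ratio of muscle, which lay near 0 and ranged from -0.16 to values just above 0. The alternatives run were thinning to 2000 UMIs, no thinning, a second random draw, expected values, stricter gates and cell filters, doublets kept, members left out, or injured cells with Y-linked UMIs alone. Thinned to 2000 UMIs, the log2 ratios that moved beyond their intervals were age in glia (3.46) and lymphoid cells (3.70), neonatal injury in mural cells (-0.67) and adult injury in lymphoid cells (1.99). Without thinning they were neonatal injury in glia (-1.04) and muscle (-0.16), adult injury in mural (3.65) and lymphoid cells (1.78) and age in lymphoid cells (3.96). In a second draw they were age in mural (3.34), muscle (3.26) and lymphoid cells (3.90), and adult injury in mural (2.18) and lymphoid cells (2.10). Without the 3 condensin genes they were age in mural (5.32), muscle (6.11) and lymphoid cells (3.78), and adult injury in mural (3.93) and lymphoid cells (1.89). Expected values gave age in lymphoid cells as 3.50, and Y-linked injured cells gave neonatal injury in glia as -1.52. The causes were not tested. With a fold of at least 4, members lower after neonatal injury numbered 1 in glia, 0 in mural cells, 0 in muscle and 7 in lymphoid cells. Of all genes the shares were 1.58%, 1.10%, 1.85% and 7.25%. With at least 50 UMIs, 2 of 4 members were at least 2-fold higher in injured adult lymphoid cells, against 13.3% of all genes. Of these 4, 1 was at 0 in the control and passed on injured UMIs alone. Naming classes by cluster moved no summed ratio beyond its interval. Across the alternative settings 45 mitotic levels moved and 109 stayed the same. Of the dividing shares 25 moved and 114 stayed the same. In mural cells the share ranged from 7.63% to 20.5% in adult injury and from 0.24% to 4.77% in adult control. It ranged from 8.33% to 37% in lymphoid cells of neonate injury and from 10.9% to 20.8% in cartilage of neonate control. The binomial intervals leave this dependence out. Adult control levels rest on 7 to 47 thinned UMIs. Barcodes removed as doublets had dividing shares of 32.9%, 10.5%, 2.18% and 14.6%, against 16.7%, 7.39%, 1.07% and 11.9% among kept cells. No paired analysis was possible because each group has 1 library and the labels give no replicate numbers.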
